A study of Mus musculus with 6 samples.

Results

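The genes described here form the growth hormone (GH), STAT5 and IGF1 axis of the liver: Ghr, Jak2, Stat5a, Stat5b, Socs2, Cish, Igf1, Igfals, Bcl6 and Cux2. They were taken by their annotated gene symbols, and all 10 were found, each with 1 row of the array table, among 19505 named genes. The data are 6 arrays of total RNA from whole livers of male C57BL/6 mice aged 8 weeks, 3 HMGB2-KO and 3 WT, each on 1 Clariom S mouse chip (Affymetrix, 1 colour), on which a set of short probes reads each gene. HMGB2-KO mice carry a knockout of Hmgb2, which encodes a DNA-bending chromatin protein, and the kind of deletion is not stated here. The study compared the genotypes to find genes related to HMGB2. The labels number the animals 39, 41 and 32 for HMGB2-KO replicates 1 to 3 and 38, 40 and 31 for WT replicates 1 to 3, and name no treatment.

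In the liver, GH from the pituitary binds its receptor GHR, which carries the tyrosine kinase JAK2. JAK2 phosphorylates STAT5A and STAT5B, and these enter the nucleus and switch on genes such as Igf1, the endocrine growth factor, Igfals, its carrier in blood, and the feedback inhibitors Socs2 and Cish. In rodents GH is released in pulses in males and more evenly in females, and the pattern sets many of the sex differences of liver gene expression. Bcl6 and Cux2 encode transcriptional repressors on that route: Bcl6 is turned down by STAT5 and is the more male gene, and Cux2 is the more female gene.

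STAT5 binds the palindrome TTCNNNGAA, so the promoters of the genes were searched for these letters, which read the same on both strands. RefSeq windows (GRCm38.p6) from 250 bases before to 50 bases after a gene's start were given for 9 of the 10 genes, 16 windows in all; Socs2 was not among them. The letters were in 5 of the 16 windows, which belong to Cish, Bcl6 and Igfals, against 8.30% of all 32851 windows. They are shown because 2 of these genes were among the most variable between livers. Capitals mark each match, the start of the gene is base 1, and the base before it is -1.
Cish, chr9:107296559-107296683, plus strand: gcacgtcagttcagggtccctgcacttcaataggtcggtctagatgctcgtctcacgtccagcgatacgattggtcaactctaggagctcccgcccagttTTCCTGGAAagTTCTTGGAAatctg
Bcl6, chr16:23981284-23981533, minus strand: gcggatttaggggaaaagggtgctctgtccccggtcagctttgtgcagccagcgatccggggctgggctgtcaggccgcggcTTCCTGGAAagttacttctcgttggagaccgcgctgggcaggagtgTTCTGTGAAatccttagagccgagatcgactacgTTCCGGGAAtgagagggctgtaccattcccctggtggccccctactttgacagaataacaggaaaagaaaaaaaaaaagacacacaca
Igfals, chr17:24877981-24878230, plus strand: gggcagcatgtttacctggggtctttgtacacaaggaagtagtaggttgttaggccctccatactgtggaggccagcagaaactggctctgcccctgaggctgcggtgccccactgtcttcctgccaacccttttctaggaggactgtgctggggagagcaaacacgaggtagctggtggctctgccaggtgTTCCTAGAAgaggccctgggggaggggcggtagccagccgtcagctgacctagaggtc
Cish held 2 matches, beginning at bases 1 and 12. This Bcl6 window held 3, beginning at -168, -122 and -88, and a second Bcl6 window held 1 at -118. The Igfals window shown held 1 at -58, and another Igfals window 1 at -236. At least 2 matches were in 0.457% of all windows and at least 3 in 0.0335%. The other 11 windows, those of Ghr, Jak2, Stat5a, Stat5b, Igf1 and Cux2 and 1 of Igfals, held no match to these letters. Bases outside the windows were not searched, and binding of STAT5 was not measured.

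Each value is a log2 difference from the row's own baseline, with every array set to a median of 0. The baseline is unknown, so livers can be compared within a gene, but no gene's level can be given or set against another gene's. For the same reason the presence of hepatocyte markers could not be read as a level. Their median over 7 genes was between 0.04 and 0.06 in the HMGB2-KO livers, 0.04 and 0.05 in WT replicates 1 and 3 and -0.16 in WT replicate 2. Before centring, the array of WT replicate 2 differed from the rest, with a median of 0.26 against -0.05 to 0.01 on the others. Results without it are also given below for some genes and lists, but not for all. Of markers of other cell types, 4 of 4 Kupffer cell genes lay higher in HMGB2-KO after centring, with per-liver medians of 0.41 to 0.67 against 0.35 to 0.49 in WT. The 4 lymphocyte markers also all lay higher, with per-liver medians of 0.15 to 0.24 in HMGB2-KO and -0.07 to 0.30 in WT. Sinusoidal endothelial markers were higher for 3 of 5 genes, stellate cell markers for 2 of 5 and cholangiocyte markers for 2 of 4. With the values as deposited, 3 of 4 Kupffer cell, 1 of 4 lymphocyte and 2 of 5 endothelial markers were higher. So were 1 of 5 stellate cell and 1 of 4 cholangiocyte markers. Of the 7 hepatocyte markers, 6 were higher after centring and 1 as deposited. The directions of the lymphocyte, hepatocyte and endothelial lists thus depend on the centring. Of these markers the endothelial adhesion gene Pecam1 alone had an unadjusted p under 0.05 in limma, where 3.68% of all genes did. Its log2 fold change was 0.55 (SE 0.14, limma unadjusted p = 0.00416, adjusted p = 0.994). Pecam1 was at 0.59, 0.58 and 0.63 in HMGB2-KO and at 0.25, 0.05 and -0.13 in WT, without overlap. The Kupffer cell marker C1qa and the cholangiocyte marker Krt19 were also higher without overlap. Of all genes, 4.32% were higher without overlap. The part of these cell types in the results below was not tested. Hmgb2 itself was at -0.66, -0.33 and -0.43 in the HMGB2-KO livers and at 0.47, 0.36 and 0.42 in the WT livers, without overlap. Its log2 fold change was -0.89 (SE 0.13, limma adjusted p = 0.645), and it is not known whether its probes lie in the deleted part.

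None of the 10 genes passed the test between HMGB2-KO and WT livers. In limma 0 of 10 passed the adjusted threshold of 0.05, where 0.0% of all genes did, and 0 of 10 had an unadjusted p under 0.05, where 3.68% of all genes did. The smallest unadjusted p in limma among the 10 was 0.225, for Ghr. In 0 of 10 did the groups lie apart without overlap, against 9.67% of all genes. The log2 fold change was above 0 for 6 genes and below 0 for 4, with a median of 0.03 against -0.00 for all genes. With 3 livers against 3 the exact permutation test cannot give a p below 0.1, and it gave 0.3 or more for each of the 10. In whole liver, fewer cells of a type and less RNA per cell cannot be told apart. Nothing in the labels says more of the animals' origin than their numbers, so the p-values measure the spread between these livers.

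**Figure D1:**
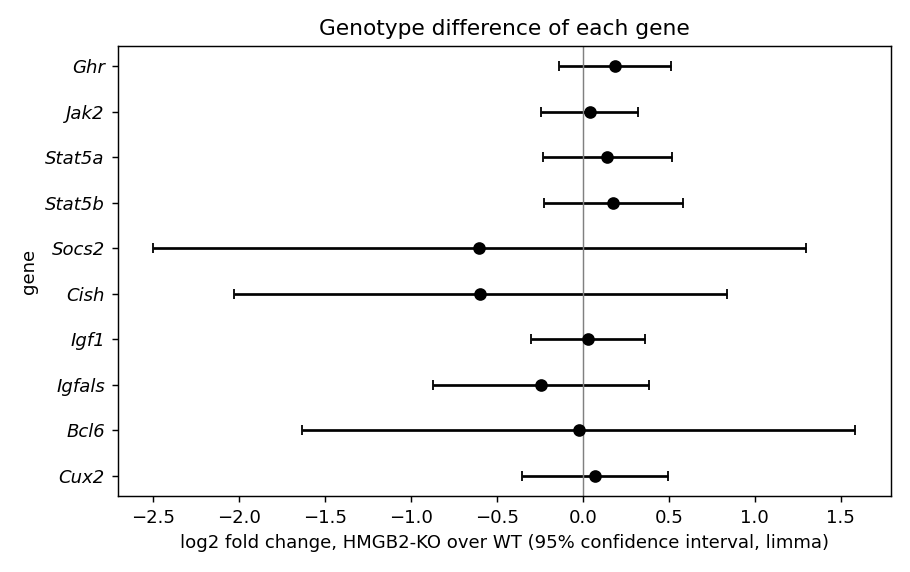
Log2 fold change of HMGB2-KO over WT (horizontal axis) for each of the 10 genes, with the 95% confidence interval from limma (n = 3 livers per genotype). Every interval spans 0, and those of Socs2, Cish and Bcl6 are several log2 units wide.

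The receptor and its kinase varied little between livers. Ghr, the GH receptor, was at 0.71, 0.58 and 0.72 in HMGB2-KO replicates 1 to 3 and at 0.71, 0.38 and 0.36 in WT replicates 1 to 3. After centring, the HMGB2-KO livers and WT replicate 1 lay above the other WT livers. As deposited, WT replicate 2 was at 0.64, above HMGB2-KO replicate 2 at 0.53. For Ghr the log2 fold change was 0.19 (SE 0.14, 95% confidence interval -0.14 to 0.51), or 0.07 with the values as deposited. It was 0.30 without WT replicate 1, 0.13 without WT replicate 2 and 0.12 without WT replicate 3. Jak2 was at 0.09, -0.07 and 0.07 in HMGB2-KO and at 0.00, -0.10 and 0.08 in WT. Its whole range over the 6 livers was 0.19, smaller than that of all but 2.26% of genes. The log2 fold change of Jak2 was 0.04 (95% confidence interval -0.24 to 0.32), -0.08 as deposited and -0.0083 without WT replicate 2.

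The STAT5 genes, which encode close copies of one another and lie side by side on chromosome 11, also overlapped between the genotypes. Stat5b, the form that carries most GH signalling in mouse liver, was at 0.53, 0.05 and 0.37 in HMGB2-KO and at 0.38, -0.01 and 0.04 in WT. Stat5a was at 0.08, -0.06 and 0.27 in HMGB2-KO and at 0.03, -0.30 and 0.13 in WT. For both genes the genotypes overlapped, and after centring the replicate 2 liver was the lowest of each genotype. As deposited, WT replicate 3 was the lowest WT liver for Stat5b, at -0.005 against 0.24 in WT replicate 2. Stat5b had a log2 fold change of 0.18 (95% confidence interval -0.23 to 0.58) and Stat5a of 0.14 (-0.23 to 0.52). Leaving out 1 liver moved both. For Stat5b it gave 0.07 (HMGB2-KO replicate 1 left out), 0.31 (HMGB2-KO replicate 2), 0.30 (WT replicate 1) or 0.10 (WT replicate 2). For Stat5a it gave 0.22 (HMGB2-KO replicate 2), 0.06 (HMGB2-KO replicate 3), 0.01 (WT replicate 2) or 0.23 (WT replicate 3).

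The feedback inhibitors behaved otherwise: they differed widely between livers of one genotype. Socs2, which restrains GH receptor signalling and whose loss makes mice grow large, was at 1.62, 1.45 and -1.24 in HMGB2-KO replicates 1 to 3 and at 2.35, 0.21 and 1.08 in WT replicates 1 to 3. HMGB2-KO replicate 3 lay lowest of the 6 livers and WT replicate 1 highest, a range of 3.59 log2 units. Its log2 fold change was -0.60 (SE 0.82, 95% confidence interval -2.50 to 1.30). Without HMGB2-KO replicate 3 it was 0.32, and without WT replicate 1 it was -0.03. Leaving out the others gave -1.11 for HMGB2-KO replicate 1, -1.02 for HMGB2-KO replicate 2 and -1.10 for WT replicate 2.

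Cish, an early STAT5 target whose product blocks STAT5 docking at cytokine receptors, was at 0.48, -0.45 and -0.25 in HMGB2-KO and at 0.05, -0.54 and 2.06 in WT. WT replicate 3 stood far above the other 5 livers, among which HMGB2-KO replicate 1 was the highest. Cish had a log2 fold change of -0.60 (SE 0.62, 95% confidence interval -2.03 to 0.84), or 0.17 without WT replicate 3. Leaving out WT replicate 2 gave -1.13. Socs2 and Cish were highest in different livers: the highest Cish liver had the fourth highest Socs2 value, and over the 6 livers Pearson's r of Socs2 with Cish was 0.23 (exact permutation p = 0.625, adjusted 0.881 over 45 pairs) and Spearman's rho 0.37 (exact p = 0.497, adjusted 0.829). Without the 2 livers farthest from the Socs2 median, r was 0.24.

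**Figure D2:**
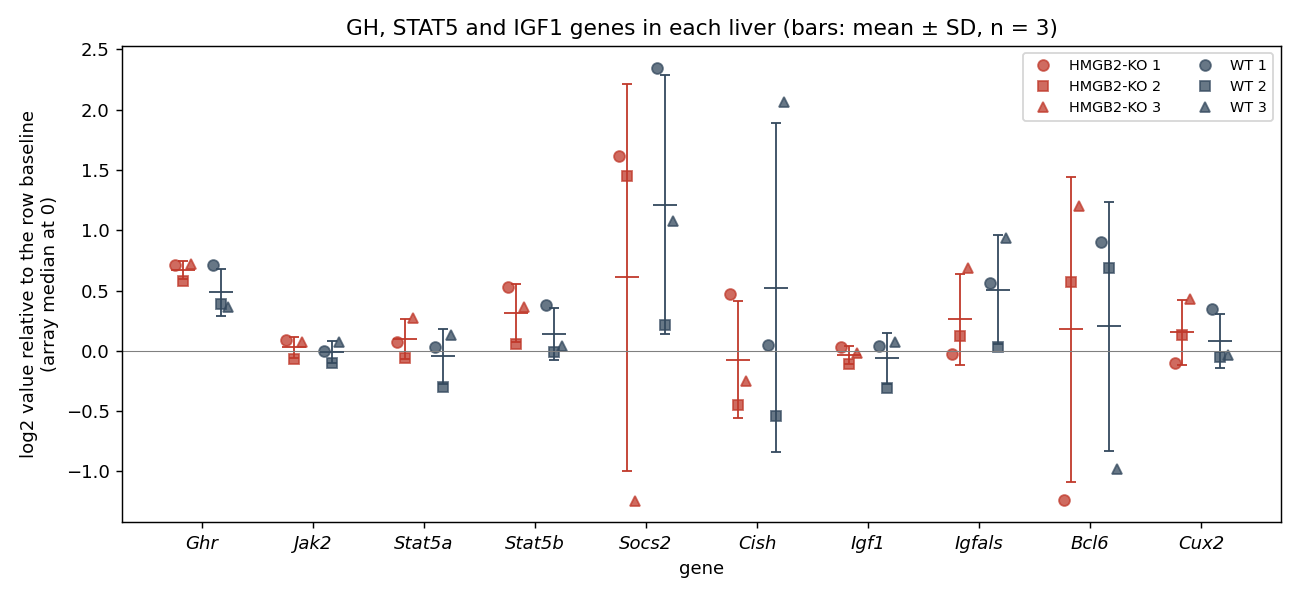
Log2 value relative to the row baseline (vertical axis, array median at 0) of each of the 10 genes, HMGB2-KO in red left of WT in dark grey, with a point per liver and bars for mean ± SD (n = 3). Ghr, Jak2, both STAT5 genes, Igf1 and Cux2 stay within 0.57 log2 units over the 6 livers, while Socs2, Cish and Bcl6 span 3.59, 2.60 and 2.43.

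Igf1 varied little between livers, and Igfals more. Igf1, made mainly by hepatocytes and the chief source of circulating IGF1, was at 0.03, -0.11 and -0.02 in HMGB2-KO and at 0.04, -0.31 and 0.07 in WT. Apart from WT replicate 2, whose array stands apart, the livers lay within a narrow band. Igf1 had a log2 fold change of 0.03 (SE 0.14, 95% confidence interval -0.30 to 0.36), or -0.09 without WT replicate 2 and -0.09 as deposited. Igfals, the acid-labile subunit that holds IGF1 and its binding protein in the blood, was at -0.02, 0.12 and 0.69 in HMGB2-KO and at 0.56, 0.03 and 0.93 in WT. The replicate 3 liver was the highest of each genotype. Its log2 fold change was -0.25 (SE 0.27, 95% confidence interval -0.87 to 0.38). Leaving out WT replicate 2 gave -0.49, and leaving out WT replicate 3 gave -0.03. Values between these came from leaving out HMGB2-KO replicate 1 (-0.10), 2 (-0.18) or 3 (-0.46).

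The repressors of sex-biased genes did not separate the genotypes either. Bcl6 was at -1.23, 0.57 and 1.20 in HMGB2-KO and at 0.91, 0.68 and -0.98 in WT. The livers fell into 2 sets across the genotypes, with HMGB2-KO replicate 1 and WT replicate 3 low and the other 4 high. Between genotypes Bcl6 differed by -0.02 on the log2 scale (SE 0.69, 95% confidence interval -1.63 to 1.58). It was 0.68 without HMGB2-KO replicate 1 and -0.62 without WT replicate 3, the low livers. Leaving out a high liver gave -0.53 (HMGB2-KO replicate 3), -0.22 (HMGB2-KO replicate 2), 0.33 (WT replicate 1) or 0.22 (WT replicate 2). Cux2 was at -0.10, 0.13 and 0.43 in HMGB2-KO and at 0.34, -0.05 and -0.04 in WT. Its log2 fold change was 0.07 (SE 0.18, 95% confidence interval -0.36 to 0.49), -0.05 as deposited and -0.00036 without WT replicate 2.

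The low Bcl6 livers, HMGB2-KO replicate 1 and WT replicate 3, were those with the highest Cish values, 0.48 and 2.06. Among the 4 livers high for Bcl6, Cish lay between -0.54 and 0.05. Cux2 was at -0.10 and -0.04 in the low livers, with WT replicate 2 at -0.05 beside them, and higher in the other 3. Since the livers fall into 2 sets by Bcl6, each with fewer than 6 livers, no r of Bcl6 with another of the 10 genes is read here as a relation. Of the 45 pairs among the 10 genes, those with Bcl6 counted, 3 had an unadjusted exact p of Pearson's r under 0.05 and 0 after Benjamini-Hochberg adjustment, where the smallest adjusted p was 0.375. The 3 were Jak2 with Stat5a (r 0.88, exact p = 0.00833, rho 0.77), Jak2 with Igf1 (r 0.86, exact p = 0.0208, rho 0.71) and Stat5a with Igf1 (r 0.84, exact p = 0.0444, rho 0.60). For all 3 genes WT replicate 2 was the lowest liver, and with the values as deposited the r of the 3 pairs was 0.20, 0.48 and 0.41. The exact p of rho was 0.103, 0.136 and 0.242. Without the 2 livers farthest from the median of the first gene, r was 0.49 for Jak2 with Stat5a, -0.13 for Jak2 with Igf1 and 0.92 for Stat5a with Igf1. Without those farthest from the median of the second gene it was 0.94, -0.13 and -0.66 in the same order, so the last pair changed sign with the livers left out. By Spearman's rho a different 2 pairs had an exact p under 0.05, Cish with Igf1 (rho 0.94, exact p = 0.0167) and Jak2 with Cish (rho 0.89, exact p = 0.0333), both at 0.75 after adjustment. Pearson's r of these was 0.65 (exact p = 0.169) and 0.64 (exact p = 0.157).

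The 10 genes differed widely in their spread between livers. The SD between livers within a genotype was 1.37 for Socs2, 1.15 for Bcl6 and 1.02 for Cish, larger than that of 99.5%, 99.2% and 98.9% of all genes. Igfals, at 0.42, exceeded 91.3% of genes. Cux2 (0.25), Stat5b (0.23) and Stat5a (0.20) were near the median of all genes, 0.19, and Igf1 (0.16), Ghr (0.15) and Jak2 (0.09) below it. A range over the 6 livers of at least 1 log2 was found in 3 of the 10 genes and in 10.7% of all genes.

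**Figure D3:**
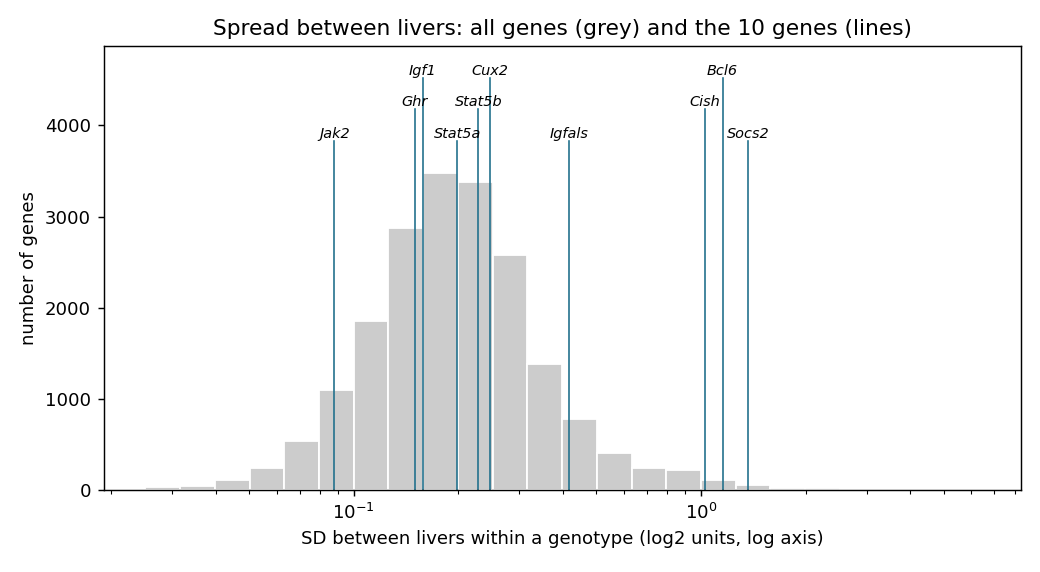
Number of genes (vertical axis) by the SD between livers within a genotype in log2 units (horizontal axis, log scale), for all 19505 genes in grey, with a line at each of the 10 genes. Socs2, Bcl6 and Cish lie in the right tail at 1.37, 1.15 and 1.02, against 0.09 for Jak2 and 0.16 for Igf1.

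The genes most like each of 5 members over the 6 livers were picked by the highest Pearson's r among 1499 genes with a range of at least 1 log2, so their r is a description with no test. With Cish went the hepatocyte pioneer factors Foxa1 (r 0.95) and Foxa2 (0.94) and the RNA-binding protein gene Zfp36l1 (0.92). All 3 were highest in WT replicate 3, where Foxa1 was at 0.77, Foxa2 at 0.91 and Zfp36l1 at 0.34. With Bcl6 went Ubd (0.98), a ubiquitin-like gene, Pttg1ip2 (0.95) and Acrv1 (0.94), each with its lowest values in HMGB2-KO replicate 1 and WT replicate 3, the livers that set Bcl6 apart. With Cux2 went Zc3h7a (0.95), the endoplasmic reticulum chaperone Hyou1 (0.94) and the oligosaccharyltransferase subunit Ostc (0.93). With Socs2 went Ppp2r2d (0.96), Trim67 (0.96) and Parpbp (0.95), all lowest in HMGB2-KO replicate 3. With Igf1 went Ets2 (0.98), Tacc3 (0.97) and Osgin1 (0.97), all lowest in WT replicate 2. An r over 0.9 with Igf1 was found for 75 candidates, against 5 with Socs2, 6 with Bcl6, 7 with Cux2 and 8 with Cish. That WT replicate 2 was lowest for Igf1 depends on the centring. As deposited Igf1 was at -0.05 there and at -0.16 in HMGB2-KO replicate 2. Likeness was taken on the centred values only, so the part of that array's offset in the 75 was not tested.

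Around the receptor, 21 of 23 listed signalling partners were measured. Of these, 11 were higher and 10 lower in HMGB2-KO, with a median log2 fold change of 0.01, or 6 and 15 with the values as deposited. The median was -0.06 without WT replicate 2 and 0.06 without HMGB2-KO replicate 3. In limma 0 passed the adjusted threshold. The unadjusted p was under 0.05 for 2, both higher, where 1.06% of all genes were called higher at that level. The same 2 were without overlap, as were 4.32% of all genes in that direction. Irs2, an insulin receptor substrate that also relays GH signals, was at 0.01, -0.40 and -0.19 in HMGB2-KO and at -0.55, -0.85 and -0.54 in WT, without overlap, a log2 fold change of 0.46 (SE 0.16, limma adjusted p = 0.994). Ptpn1, a phosphatase that acts on JAK2, was at -0.32, -0.23 and -0.08 in HMGB2-KO and at -0.41, -0.72 and -0.49 in WT, again without overlap (0.33, SE 0.14). Next by p were the adaptor gene Sh2b2 (-0.37, SE 0.17) and the phosphatase gene Ptpn2 (0.26, SE 0.16), both with overlap. Sh2b2 was at -0.24 without WT replicate 3, and Ptpn2 at 0.17 without HMGB2-KO replicate 2 and 0.16 without WT replicate 2.

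Of the 15 IGF ligands, receptors and binding proteins, 9 were higher and 6 lower, with a median of 0.03, or 5 and 10 as deposited. In limma 0 had an unadjusted p under 0.05, where 3.68% of all genes did. The 4 with the smallest p were Igfbp2 (0.30, SE 0.19), Igfbp3, the partner of IGF1 and Igfals in blood (0.21, SE 0.14), the clearance receptor gene Igf2r (0.20, SE 0.17) and the receptor gene Igf1r (-0.17, SE 0.16). Igfbp2 was at 0.13 when HMGB2-KO replicate 1 was left out and 0.49 when HMGB2-KO replicate 3 was, and Igfbp3 at 0.11 without HMGB2-KO replicate 1. Igf2r was at 0.05 without HMGB2-KO replicate 2, 0.13 without WT replicate 1 and 0.29 without WT replicate 3. Igf1r was at -0.02 without WT replicate 2 and -0.25 without WT replicate 3. Igfbp1, an insulin-repressed binding protein singled out after its values were seen, had the widest range of the list, at 1.50, -0.14 and -0.82 in HMGB2-KO and at -0.09, 0.75 and -2.11 in WT. Its lowest liver, WT replicate 3, was the highest for Cish and Igfals.

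Among 12 measured transcription factors tied to GH-regulated sex differences, 8 were higher and 4 lower, with a median of 0.12. As deposited these were 6 and 6, with a median of -0.00. An unadjusted p under 0.05 in limma was found for 0 of them, and for 3.68% of all genes. Tox (0.31, SE 0.19), the glucocorticoid receptor gene Nr3c1 (0.21, SE 0.14), the oestrogen receptor gene Esr1 (0.17, SE 0.13) and the corepressor gene Trim24 (-0.48, SE 0.41) had the smallest p. Tox was at 0.16 without WT replicate 3 and Nr3c1 at 0.12 without WT replicate 2. Trim24 lay between -0.92 without HMGB2-KO replicate 2 and -0.20 without WT replicate 1, and was -0.28 when HMGB2-KO replicate 1 was left out, -0.26 for HMGB2-KO replicate 3 and -0.76 for WT replicate 3. The range over the livers was at least 1 log2 in 5 of the 12, and in 10.7% of all genes. Onecut1, which encodes HNF6, a GH-responsive factor in rodent liver, was singled out after its values were seen. It was at 1.12, 1.21 and -0.40 in HMGB2-KO and at 0.22, 0.08 and 2.66 in WT, and like Cish was highest in WT replicate 3.

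The downstream sex-biased genes were listed from general knowledge of GH dependence, and both lists overlap with genes already known to stand out in these livers, so their directions are no independent evidence. Of 33 measured female-biased genes, 27 were lower and 6 higher in HMGB2-KO, with a median of -0.18 against -0.00 for all genes. As deposited, 30 were lower and 3 higher, with a median of -0.29 against -0.12 for all genes. The median of the list by liver was 0.02, 0.00 and -0.09 in HMGB2-KO and 0.21, 0.22 and -0.08 in WT. WT replicate 3 thus lay within the HMGB2-KO range. In limma 0 passed the adjusted threshold. An unadjusted p under 0.05 was found for 3 lower genes, where 2.61% of all genes were called lower. It was also found for 1 higher gene, where 1.06% of all genes were called higher. The groups lay apart without overlap for 4 lower genes, these 3 and A1bg, where 5.35% of all genes did so. The lower genes were the cytochrome P450 genes Cyp2c40 (-1.40, SE 0.22, adjusted p = 0.735) and Cyp2c69 (-1.05, SE 0.21), near-identical copies whose probes may read each other, and the sulfotransferase gene Sult3a1 (-0.53, SE 0.18). The higher one was Cd36, a fatty acid transporter (0.37, SE 0.15). Its groups also lay apart without overlap, as did those of 4.32% of all genes in that direction. Cyp2c40 was at 0.18, -0.64 and -0.14 in HMGB2-KO and at 1.29, 0.98 and 1.32 in WT. Cux2, which activates female-biased genes when expressed in male mouse liver, overlapped between the genotypes. Its values were -0.10, 0.13 and 0.43 in HMGB2-KO and 0.34, -0.05 and -0.04 in WT. Any part of Cux2 in the values of the female-biased genes was not tested.

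Of 22 measured male-biased genes, 18 were higher and 4 lower, with a median of 0.13. With the values as deposited, 12 were higher and 10 lower, with a median of 0.01. After centring, the median was 0.05 without WT replicate 2 and 0.21 without HMGB2-KO replicate 1. The median by liver was 0.45, 0.58 and 0.77 in HMGB2-KO and 0.44, 0.30 and 0.72 in WT, with overlap. Cyp4a12a, a male-specific fatty acid hydroxylase, was the one gene with an unadjusted p under 0.05 in limma, where 1.06% of all genes were called higher at that level. The groups lay apart for 2 higher genes, Cyp4a12a and Cyp2j5, against 4.32% of all genes. It was at 1.39, 1.41 and 1.55 in HMGB2-KO and at 1.06, 1.01 and 1.10 in WT, without overlap, a log2 fold change of 0.39 (SE 0.12, limma adjusted p = 0.994). Susd4 (0.38, SE 0.17), Serpina12 (0.28, SE 0.15, or 0.18 without WT replicate 2) and the glucuronosyltransferase gene Ugt2b38 (0.51, SE 0.28, or 0.20 with HMGB2-KO replicate 2 left out and 0.77 with HMGB2-KO replicate 1 left out) followed. Elovl3, a fatty acid elongase singled out after its values were seen, was at 2.03 in HMGB2-KO replicate 3 and 1.91 in WT replicate 3 and between -0.93 and 0.36 in the other 4 livers.

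**Figure D4:**
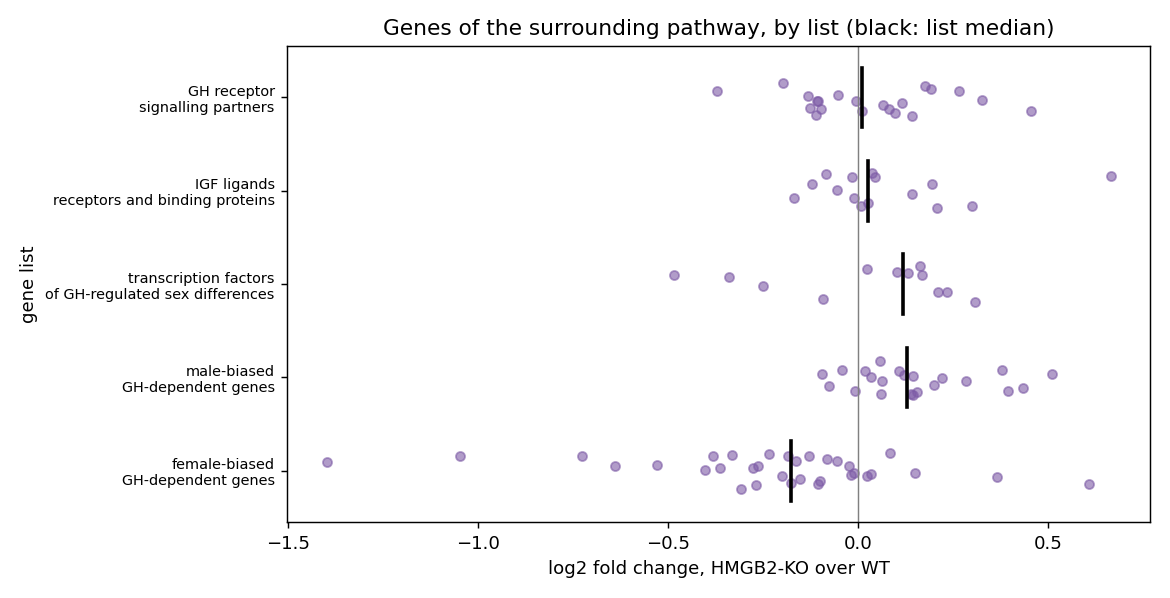
Log2 fold change of HMGB2-KO over WT (horizontal axis) for each measured gene of the 5 lists, with the list median in black and the median of all genes as a grey line. The medians run from -0.18 for the female-biased list to 0.13 for the male-biased list, and no gene shown passed the adjusted threshold in limma.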

How the data were processed

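The authors deposited 1 table of 22206 rows of log values, read here as log2 and given relative to a baseline of each row. How the probes were combined and the arrays normalized, the log base and the baseline are not stated. Per the labels' protocols RNA was extracted with Trizol and labelled with biotin. Rows were named through the platform annotation: 19572 rows carry 1 symbol, 0 several and 2634 none here. Where a gene had more than 1 row (55 genes) the one with the highest mean stayed, leaving 19505 genes. Each array was centred on its median. HMGB2-KO was tested against WT by two-sided moderated tests in limma 3.58.1 (R 4.3.3), with genotype as the factor and Benjamini-Hochberg adjustment over all genes, after a check on simulated data. Promoter windows are RefSeq's. Per list the 4 genes with the smallest p are named, and for 5 members the 3 most alike genes, without predicted genes or olfactory and vomeronasal receptors. Members and lists were chosen with earlier results of these data known. The number of arrays limits the precision. Alternatives were other normalizations, row means, blocks, array weights, an unmoderated test and leaving out each liver.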

Additional observations from a re-analysis of the deposited data

How the results depend on the processing

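The counts of 0 genes past the adjusted threshold and of 0 members at an unadjusted p under 0.05 held under all 14 alternatives run, while 601 to 946 genes passed the unadjusted level, against 717. With the replicate number as a block, 858 genes did. The labels tie no litter or batch to a number, and the deviations of same-numbered livers from the genotype means correlated at 0.04, 0.13 and 0.29 for numbers 1 to 3, so the livers were not treated as pairs. That 5 of 6 livers correlated best with their own number, and that same-numbered animals carry adjacent animal numbers, are hints of a pairing. The block changed no call. No pair of members passed the adjusted threshold under any of the 3 alternatives tried for pairs.

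Of 31 single genes followed, 25 kept their sign throughout. The 6 that changed sign were all among the 10 genes of the axis: Jak2, Socs2, Cish, Igf1, Bcl6 and Cux2. Apart from the 10, those followed were Hmgb2 and the genes named in each list for the smallest p. That choice favours a stable sign, so the count of 25 does not measure how stable the axis genes were. The values as deposited put Jak2 at -0.079, Igf1 at -0.088 and Cux2 at -0.050, all above 0 after centring. Within animals 38 to 41 Socs2 was at 0.26, Cish at 0.26, Cux2 at -0.13 and Bcl6 at -1.13. Quantile normalization put Bcl6 at 0.074 and array weights put Igf1 at -0.018. With 1 liver left out the log2 fold change lay between -1.11 and 0.32 for Socs2, -1.13 and 0.17 for Cish, -0.62 and 0.68 for Bcl6, -0.092 and 0.099 for Igf1, -0.0083 and 0.088 for Jak2, and -0.071 and 0.20 for Cux2. Without centring, the median over all genes was -0.12 and every gene shifted alike. That put the median of the receptor partners at -0.11, of the IGF list at -0.092 and of the transcription factors at -0.0020. Within animals 38 to 41 the median of the receptor partners was 0.084. With 1 liver left out the median of the male-biased list lay between 0.05 and 0.21 and that of the female-biased list between -0.29 and -0.07. Except where a left-out liver shows it, the cause was not tested. The values give no signal over background, so whether genes that male liver hardly expresses, such as Cux2, were read above background is unknown.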
